A study of Mus musculus with 8 samples.

Results

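The inflammatory cytokines and chemokines described here were 12 probe sets for 10 genes, taken by probe set ID out of 45037 probe sets on an Affymetrix mouse whole-genome array. Gene names follow the annotation of that array. The genes were Tnf, Il1b, Il6, Il10, Ccl3, Ccl4, Cxcl2, Ptgs2 with 2 probe sets, Il1rn with 2 probe sets, and Icam1. Whole blood was drawn from the vena cava of mice and hybridised to 8 arrays. The 4 control arrays carried blood of mice kept under room conditions by the labels' protocol, while their titles call them chamber controls, so whether these mice were held in a chamber is not settled. The 4 hypoxia arrays carried blood of mice held in a closed chamber at normal pressure, where oxygen was brought down from 21% to 8% in the course of 14 days and blood was taken on completion of 15 days. The labels name no strain, age or sex. Control RNA came from 100 µl of blood and hypoxia RNA from 500 µl, so exposure and blood volume cannot be told apart in any difference. Nothing in the labels states that the numbered samples of a group were separate animals, and the spread behind every p-value may therefore be technical.

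Tnf, Il1b and Il6 encode the classical proinflammatory cytokines, which activated monocytes, macrophages and neutrophils make after stimulation of pattern-recognition receptors. Il10 encodes a cytokine that dampens that response, and Il1rn the secreted antagonist that occupies the IL-1 receptor without signalling. Ccl3, Ccl4 and Cxcl2 encode chemokines that draw monocytes, lymphocytes and neutrophils, Ptgs2 the inducible cyclooxygenase that starts prostaglandin synthesis, and Icam1 the adhesion molecule to which leukocyte integrins bind. Many of these genes are targets of the transcription factor NF-kappaB. Most of their transcripts are short-lived.

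Of the 12 probe sets, 1 was called lower in hypoxic blood, where 2.6% of all probe sets were. It was Icam1, 4.14-fold lower by the measured intensities and 2.79-fold lower with the 3 hypoxia arrays that were not above background set at their array median. Its call was lost without any 1 array (limma adjusted p = 0.0503 to 0.102). Its groups did not overlap, as in 10.5% of all probe sets in that direction. None was called higher by limma at an adjusted p under 0.05, where 3.65% of all probe sets were. By the array median, Il6, Il10 and Il1rn were not above background on any array, and Cxcl2 was above it on hypoxia 1 alone. Tnf was above background on 0 control arrays and, at percentiles 52.9 to 57.4, on all 4 hypoxia arrays. Ccl3 and Ccl4 were above it on some arrays of each group. Il1b was above background in both groups. It was highest on hypoxia 1, far above the other hypoxia arrays.

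The table of intensities has no detection calls, so a probe set was called above background on an array where its intensity exceeded the median of that array. The medians ran from 163 to 202 on control arrays and from 230 to 245 on hypoxia arrays. A second limit came from 27 control probe sets against bacterial transcripts that are not among the hybridization controls. The brightest of these had an intensity of 86.8 to 159 on control arrays and 229 to 295 on hypoxia arrays. Their mean log2 intensity was 4.33 ± 0.23 (SD, n = 4) on control arrays against 5.40 ± 0.40 (SD, n = 4) on hypoxia arrays, a difference of 1.07 (SE 0.23, exact two-sided permutation p = 0.0286, the smallest that 4 against 4 arrays allow). The hybridization controls, RNA that is usually added in equal amounts, were brighter in hypoxia by 0.94 (SE 0.17, exact permutation p = 0.0286). Both kinds of control were thus brighter on the hypoxia arrays, and their part in the results below was not tested beyond rescaling.

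By the array median, Il1b was above background on all 8 arrays, as were 10262 of the 45037 probe sets. Icam1 was above it on all 4 control arrays and on 1 hypoxia array. The brighter Ptgs2 probe set was above it on all 4 control arrays and on 3 hypoxia arrays. Tnf was above it on 0 control arrays and on all 4 hypoxia arrays. Ccl3 passed on 3 control and 2 hypoxia arrays, Ccl4 on 2 and 2, and the dimmer Ptgs2 probe set on 1 and 1. Cxcl2 passed on hypoxia 1 alone. Il6, Il10 and both Il1rn probe sets passed on 0 of 8 arrays. With the brightest bacterial probe set of each array as the limit, the probe set above it on all 4 hypoxia arrays was Il1b alone. Tnf and Il10 on control 3, Ccl4 on control 1, and the Il1rn probe set with the ID suffix _at on control 4, also exceeded this limit, though under the array median. The TrpnX probe sets are some of these bacterial controls. With the brightest TrpnX probe set as the limit, Tnf and Il1b were above it on all 4 hypoxia arrays.

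**Figure D1:**
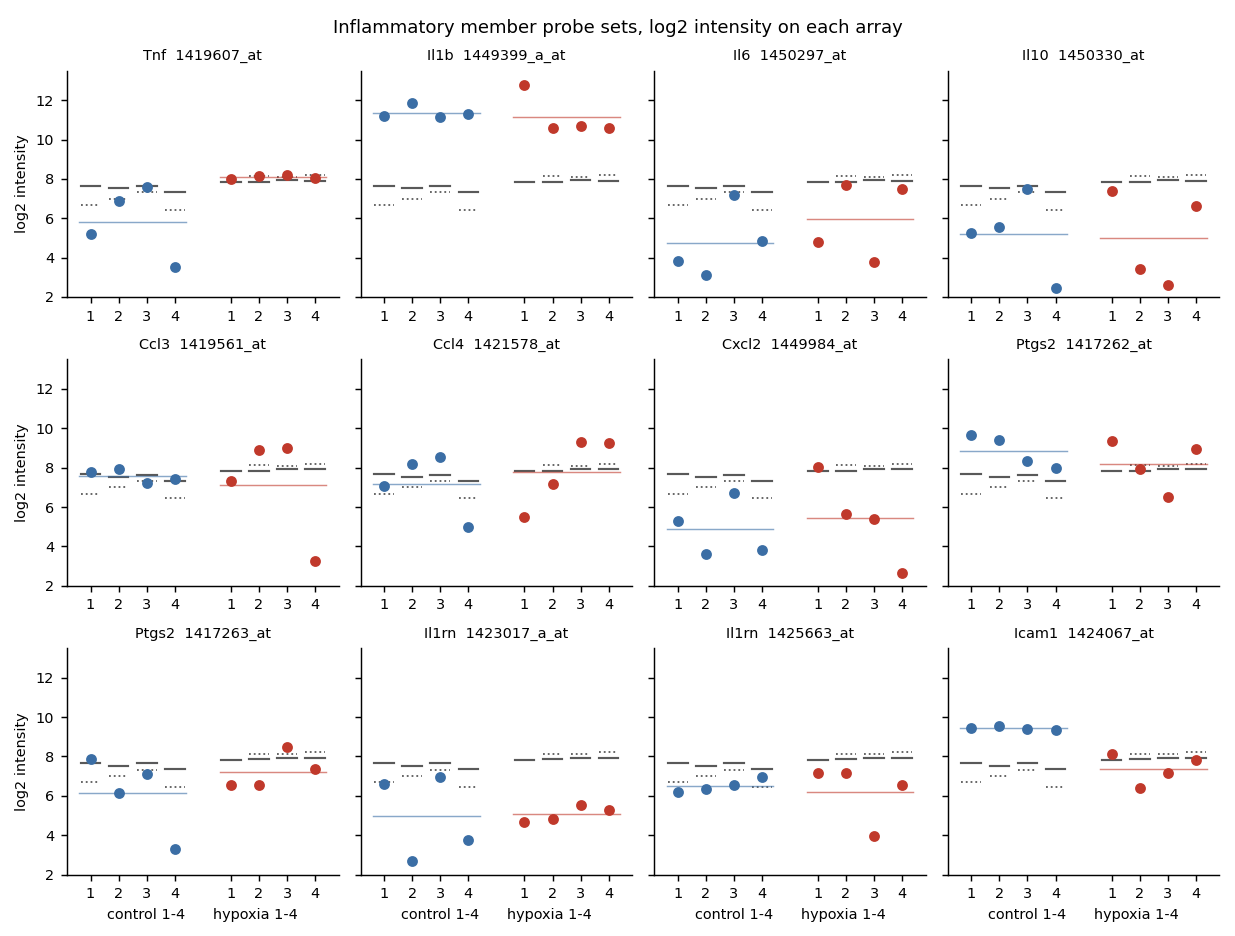
Log2 intensity (vertical axis) of the 12 probe sets on control arrays 1 to 4 (blue points) and hypoxia arrays 1 to 4 (red points). Thin coloured lines are group means, solid grey dashes the median of each array and dotted dashes its brightest bacterial control probe set. Icam1 drops to the background band in hypoxia, Tnf rests on that band in hypoxia, and Il1b stands well over it with hypoxia 1 apart at 12.79.

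Icam1 (1424067_at) was the only member called at a limma adjusted p under 0.05, a call lost without any 1 array. Its intensity was 687, 760, 681 and 649 on control arrays 1 to 4, and 282, 85.1, 144 and 227 on hypoxia arrays 1 to 4. Every hypoxia array lay below every control array, and the controls were close together. Of the 4503 probe sets of similar mean brightness, 15.9% were separated downward in this way. On the log2 scale the level was 9.44 ± 0.10 (SD, n = 4) on control arrays against 7.39 ± 0.76 (SD, n = 4) on hypoxia arrays. Icam1 decreased by 2.05 (SE 0.45, 95% interval -3.08 to -1.02, limma adjusted p = 0.0383). Among all probe sets, 2.6% were called lower and 3.65% higher by the same test. Within its array, Icam1 went from a percentile of 79.9 to 82.2 in control to one of 25.9 to 57.0 in hypoxia. The size of the fall is uncertain at its lower end, because hypoxia 2, 3 and 4 were not above background. With these 3 arrays set at the median of their array, the difference was -1.48, or 2.79-fold. In blood as a whole, fewer cells that express a gene and less of its RNA per cell cannot be told apart.

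The direction of the Icam1 difference did not depend on the scale. Centring on the array median gave -2.39, quantile normalization gave -2.17 and a zero set by the hybridization controls gave -2.99, each past the limma threshold. Lower calls also changed in number over all 45037 probe sets, from 1173 without rescaling to 2433, 1062 and 6129 in the same order. The authors' deposited table listed a log2 difference of -1.17, a signed fold of -2.24 and a q-value of 0% for Icam1. Of the 19916 probe sets in the authors' deposited table, 41.1% were lower and 20.6% higher at a q-value under 5%, so a low q-value was common there. With any 1 array left out, the limma adjusted p rose to between 0.0503 and 0.102, while the difference stayed between -2.30 and -1.72. Among 4503 probe sets of similar mean brightness, 4.49% had a more negative difference than Icam1, and the median difference was -0.11.

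The promoter of Icam1 is shown because Icam1 is the member that was called. It is the RefSeq window from 250 bases before the annotated start to 50 bases after it, chr9:21015690-21015989 of GRCm38.p6, plus strand, 5′ to 3′. Capitals mark matches to GCGTG, a core of the hypoxia response element, and to TATAAA, the TATA box letters. Both strands were searched.

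Icam1: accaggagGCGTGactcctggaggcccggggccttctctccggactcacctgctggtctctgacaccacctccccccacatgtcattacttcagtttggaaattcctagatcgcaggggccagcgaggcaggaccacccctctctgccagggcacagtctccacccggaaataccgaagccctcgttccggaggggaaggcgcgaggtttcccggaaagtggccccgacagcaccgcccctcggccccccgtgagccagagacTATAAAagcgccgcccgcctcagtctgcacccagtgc

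Here GCGTG stood at -242 to -238, counted from 0 at the annotated start, and TATAAA at 13 to 18, after the start. Of all 32851 promoter windows in the table, 32.4% held GCGTG and 13.6% held TATAAA on either strand. The NF-kappaB consensus motif, held by 4.51% of windows, had no match in the Icam1 window, which says only that these letters are not there.

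Tnf (1419607_at) was the other member whose groups did not overlap, and it did not pass the test. Its intensity was 36.5, 118, 196 and 11.7 on control arrays 1 to 4, and 251, 287, 288 and 260 on hypoxia arrays 1 to 4. The controls were scattered and the hypoxia arrays nearly equal. The log2 difference was 2.28 (SE 0.83, 95% interval 0.39 to 4.16, limma adjusted p = 0.132). Of all probe sets, 10.5% had all 4 hypoxia values above all 4 control values and 10.5% had them all below. Against these shares, 1 of the 12 members was separated upward and 1 downward. All 4 control arrays were below background by the array median, so the size of the difference is uncertain and no fold is given. By the brightest bacterial probe set, control 3 passed, with 196 against 159.

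The level that Tnf reached in hypoxia was close to background itself. It exceeded the brightest bacterial control probe set on hypoxia 1, 2 and 3 and lay under it on hypoxia 4, where that probe set had 295. Tnf stood between percentiles 52.9 and 57.4 of the hypoxia arrays. Among 4504 probe sets of similar mean brightness, 8.15% were separated upward and 5.2% had a larger difference than Tnf. With an offset of 100 added before log2 the difference was 1.07 (limma adjusted p = 0.046), and with the hybridization controls as zero it was 1.34 (95% interval -0.48 to 3.15, limma adjusted p = 0.297). The offset of 100 called 3476 of all 45037 probe sets higher, against 1643 without it. Tnf was not listed in the authors' deposited table.

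**Figure D2:**
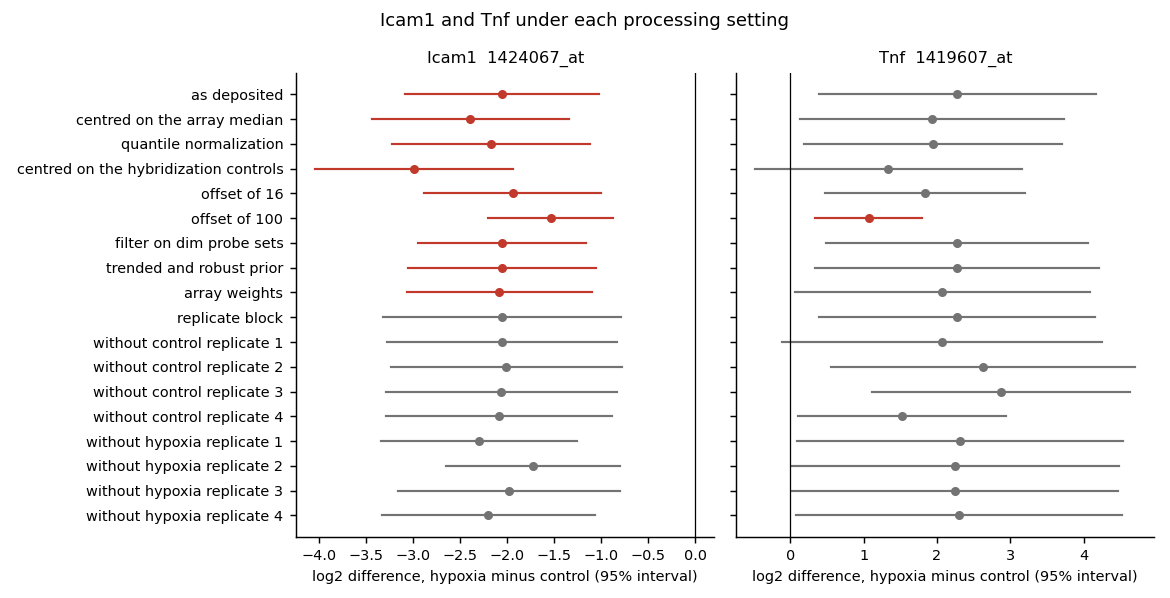
Log2 difference, hypoxia minus control, with its 95% limma interval (horizontal axis) of Icam1 and Tnf under each processing setting (rows). Red marks an adjusted p under 0.05 and grey an adjusted p of 0.05 or more. Icam1 stays between -2.99 and -1.53 and Tnf between 1.07 and 2.88.

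Il1b was the one cytokine well above background throughout. Its intensity was 2358, 3666, 2238 and 2506 on control arrays 1 to 4, and 7093, 1550, 1641 and 1544 on hypoxia arrays 1 to 4. On hypoxia 1 it was 4.32-fold above the next highest hypoxia array and above every control, while the other hypoxia arrays lay below every control. The log2 level was 11.37 ± 0.32 (SD, n = 4) on control arrays against 11.17 ± 1.09 (SD, n = 4) on hypoxia arrays, a difference of -0.20 (SE 0.57, 95% interval -1.50 to 1.10, limma adjusted p = 0.86). Without hypoxia 1 the difference was -0.74 (95% interval -1.62 to 0.14, limma adjusted p = 0.284). The size of the Il1b difference thus rested on 1 array, and in neither case did it pass the test. The authors' deposited table gave a log2 difference of -0.32 but a fold ratio of 1.00 for Il1b, with a q-value of 16.6%.

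The gap of Il1b on hypoxia 1 was rare on that array. Over the 10262 probe sets above the array median on all 8 arrays, 3 stood at least 2 log2 units above the other hypoxia arrays on hypoxia 1, and 1 stood further above than Il1b did with its 2.11. The same count was 1 on hypoxia 2 and 0 on hypoxia 3, hypoxia 4 and every control array. Hypoxia 1 was thus not bright in general, and it was the highest hypoxia array for 23.5% of these probe sets. The SD of Il1b over the hypoxia arrays exceeded that of 98.6% of the 4504 probe sets of similar brightness. Among the members, hypoxia 1 was the highest hypoxia array for 5 of 12, namely Il1b, Il10, Cxcl2, the brighter Ptgs2 probe set and Icam1. Hypoxia 3 was highest for 5 others, hypoxia 2 for 2 and hypoxia 4 for 0.

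**Figure D3:**
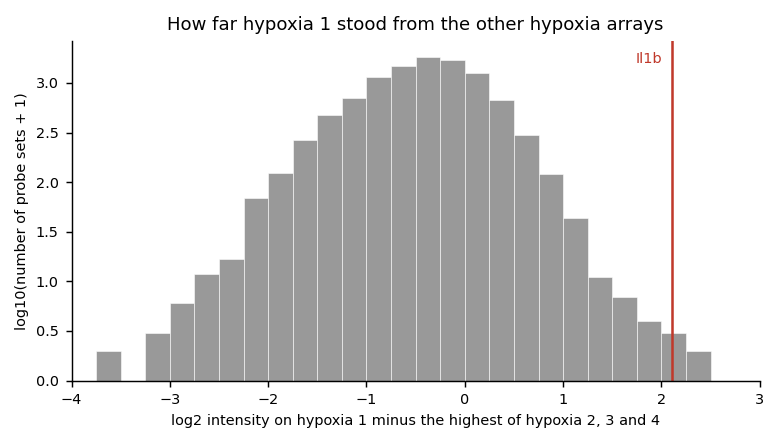
Number of probe sets (vertical axis, log10 of the number plus 1) by their log2 intensity on hypoxia 1 minus the highest of the other 3 hypoxia arrays (horizontal axis), for the 10262 probe sets above the median on all 8 arrays. The red line marks Il1b at 2.11, at the right edge of the distribution.

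The promoters of Tnf and Il1b are shown as those of the cytokine whose groups were separated and of the cytokine that stood out on 1 array. They are the same RefSeq windows of GRCm38.p6, 5′ to 3′ on the minus strand, at chr17:35201958-35202257 for Tnf and chr2:129371090-129371389 for Il1b. Capitals mark TATAAA.

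Tnf: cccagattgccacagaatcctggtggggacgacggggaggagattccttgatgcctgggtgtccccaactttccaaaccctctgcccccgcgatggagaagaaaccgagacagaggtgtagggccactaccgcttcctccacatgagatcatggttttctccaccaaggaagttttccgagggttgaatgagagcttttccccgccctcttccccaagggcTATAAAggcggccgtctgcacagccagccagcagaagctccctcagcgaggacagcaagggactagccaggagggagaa

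Il1b: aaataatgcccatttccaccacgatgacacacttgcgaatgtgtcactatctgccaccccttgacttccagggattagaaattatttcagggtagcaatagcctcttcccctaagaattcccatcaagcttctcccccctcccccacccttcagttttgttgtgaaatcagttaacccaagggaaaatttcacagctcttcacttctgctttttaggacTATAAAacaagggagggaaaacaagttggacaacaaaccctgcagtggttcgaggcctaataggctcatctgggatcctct

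TATAAA stood at -29 to -24 in Tnf and at -31 to -26 in Il1b, at the usual place before the start. Neither window held the GCGTG core, the other core ACGTG or the NF-kappaB consensus motif. Of the 10 genes, 8 had a window in the table. GCGTG was found in 4 of these 8 genes, Icam1, Cxcl2, Ptgs2 and Il1rn. These counts are by gene and Il1rn had several windows, while the shares of all windows are by window. The ACGTG core was found in Ptgs2 alone and in 19.6% of all windows. The NF-kappaB consensus motif was found in 2 genes. In Il6 it read GGGATTTTCC at -44 to -35, and in Cxcl2 it read GGGAATTTCC at -97 to -88 and overlapped a match on the opposite strand. Of these genes, Il6 was above background on 0 arrays and Cxcl2 on 1.

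Il6 (1450297_at), which drives the acute-phase response, was not above background on any array. Its intensity was 14.3, 8.71, 146 and 29.1 in control and 28.0, 206, 13.9 and 181 in hypoxia, in array order. The groups overlapped and the log2 difference of 1.19 (SE 1.15, limma adjusted p = 0.558) has a 95% interval of -1.44 to 3.82. Il10 (1450330_at) had 37.6, 47.3, 176 and 5.52 in control and 164, 10.9, 6.07 and 97.5 in hypoxia. It too stayed under the median of every array, with a difference of -0.18 (95% interval -3.25 to 2.90, limma adjusted p = 0.95). Both intervals include large changes in either direction, so the data exclude neither a rise nor a fall.

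Ccl3 and Ccl4 were above background on some arrays of each group, and both varied widely within the hypoxia group. Ccl3 had 218, 246, 148 and 169 in control, and 160, 477, 511 and 9.51 in hypoxia. Its hypoxia arrays lay on both sides of the controls, with 2 above, 1 below and 1 within their range. The hypoxia SD of 2.69 log2 units was larger than that of 98.7% of the 4503 probe sets of similar brightness, and the difference was -0.46 (SE 1.18, 95% interval -3.16 to 2.24, limma adjusted p = 0.84). Ccl4 had 134, 289, 367 and 31.8 in control and 45.4, 142, 623 and 602 in hypoxia. Its difference was 0.60 (SE 1.06, 95% interval -1.83 to 3.03, limma adjusted p = 0.764). On hypoxia 3 and 4 Ccl4 stood at percentiles 80.5 and 80.2 of the array. Both chemokines were high on hypoxia 3, and on hypoxia 4 Ccl4 was high while Ccl3 was at its lowest. The authors' deposited table listed log2 differences of 0.06 for Ccl3 and 0.30 for Ccl4, with q-values of 23.7% and 13.7%.

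Cxcl2 (1449984_at), a neutrophil attractant, had 39.2, 12.1, 105 and 14.3 in control and 259, 49.8, 42.4 and 6.33 in hypoxia. Its single value over the array median was that of hypoxia 1, the array on which Il1b was also highest. The difference was 0.57 (SE 1.15, 95% interval -2.05 to 3.19, limma adjusted p = 0.794).

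Ptgs2 was read by 2 probe sets that disagreed in sign. At the brighter one the intensity was 816, 667, 322 and 249 in control and 653, 245, 90.4 and 495 in hypoxia. The groups overlapped, and the difference was -0.65 (SE 0.71, 95% interval -2.27 to 0.97, limma adjusted p = 0.608). At the dimmer one the intensity was 238, 70.9, 140 and 9.83 in control and 93.4, 93.4, 362 and 162 in hypoxia, mostly under the array median. There the difference was 1.11 (SE 0.98, 95% interval -1.13 to 3.36, limma adjusted p = 0.518). The log2 ratio of the brighter to the dimmer probe set was 2.72 ± 1.55 (SD, n = 4) on control arrays against 0.95 ± 2.06 (SD, n = 4) on hypoxia arrays, which did not differ beyond the spread (exact permutation p = 0.229, adjusted p = 0.886 over 4 ratios). The authors' deposited table listed the brighter one at a log2 difference of -0.05 with a q-value of 17.9%.

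Il1rn was under the array median on all 8 arrays at both probe sets. At the probe set with the ID suffix _a_at the intensity was 96.9, 6.41, 125 and 13.3 in control and 25.2, 28.5, 47.1 and 38.3 in hypoxia, a log2 difference of 0.08 (95% interval -2.11 to 2.27, limma adjusted p = 0.968). At the probe set with the suffix _at it was 73.0, 81.4, 94.6 and 125 in control and 141, 145, 15.8 and 94.2 in hypoxia, a difference of -0.30 (95% interval -1.96 to 1.35, limma adjusted p = 0.828). The balance of agonist and antagonist was examined as the log2 ratio of Il1b to Il1rn at the _a_at probe set. Its difference of -0.28 (SE 1.38, exact permutation p = 0.886, adjusted p = 0.886 over 4 ratios) rests on a denominator at background. The ratio between the 2 Il1rn probe sets was 0.38 higher in hypoxia (SE 1.46), and that of Ccl3 to Ccl4 differed by -1.07 (SE 2.00), both with an exact permutation p of 0.886 adjusted over 4 ratios.

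**Figure D4:**
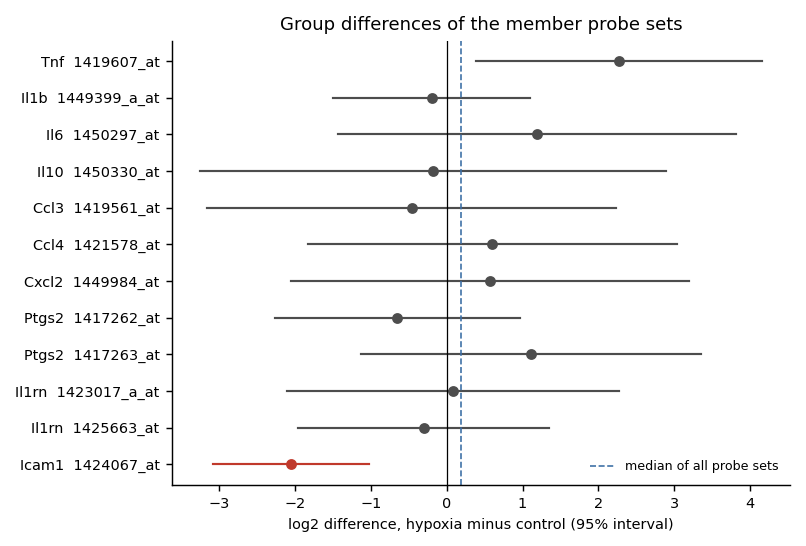
Log2 difference, hypoxia minus control, of the 12 probe sets (rows), with 95% limma intervals from 4 arrays in each group. The dashed line is the median difference of all probe sets, 0.19. Icam1 (red) is the one with an adjusted p under 0.05, and every interval other than those of Icam1 and Tnf includes 0.

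Across the 12 probe sets, 6 differences were above 0 and 6 below, with a median of -0.05. The median over all 45037 probe sets was 0.19, and 55.7% of them were above 0. The authors' deposited table listed 5 of the 12, Il1b, Ccl3, Ccl4, the brighter Ptgs2 probe set and Icam1, and Icam1 was the one with a q-value under 5%. The arrays correlated across probe sets at a Pearson r of 0.769 to 0.796 within control and 0.673 to 0.718 within hypoxia, and the SD of the log2 values was larger in hypoxia for every member except Tnf, the dimmer Ptgs2 probe set and the _a_at probe set of Il1rn.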

How the data were processed

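Biotin-labelled RNA of 8 whole-blood samples was measured on 1-colour arrays. The authors deposited 1 linear intensity per probe set and array. How it was computed is not given in the sources used. GCRMA, RMA and Partek appear in the submitters' processing notes, with no role stated. Each array had a mean of 500 without its lowest and highest 2% of values, a trace of scaling. The authors' deposited table of SAM results gives, per the file headers, a score, a fold ratio, a log2 difference and a q-value in percent. Its differences depart from those of the intensities (-1.17 against -2.05 for Icam1), so it was described, not tested.

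Intensities below 1 were set to 1 (14 values), log2 was taken, 64 controls were left out of the fit, and the 45037 other probe sets each entered a linear model (limma 3.58.1, R 4.3.3, lmFit and eBayes, no covariate), with Benjamini-Hochberg adjustment over all of them. The step was tested on simulated data. Ratios were tested by exact permutation. The number of arrays limits the precision. Replicate numbers did not pair the arrays, with correlations of same-numbered deviations between -0.02 and 0.01. The members, lists, limits and ratios were chosen with earlier results of these data known. All 12 members are described. Probe sets of other pathway genes and of cell type markers were listed by symbol but could not be matched, since the gene tables used here hold no probe set IDs, so neither those lists nor the labelled tissue were checked. The limit from all bacterial probe sets, the TATAAA search and the comparison of hypoxia 1 with the other arrays were added after the data were seen. The limit from the TrpnX probe sets alone was planned.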

Additional observations from a re-analysis of the deposited data

Results flagged for a closer look

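Dixon's 95% limit was passed in 1 of 32 sets of 4 values, where chance gives about 1.6. It was Il1b on hypoxia 1, with a log2 intensity of 12.79 against 10.59 to 10.68 on the other hypoxia arrays. The source of that value was not tested.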

How the results depend on the processing

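Icam1 kept its direction and its call under 8 alternatives that used all 8 arrays, with differences from -2.99 to -1.53 and limma adjusted p from 0.0041 to 0.0364. These were 3 rescalings, 2 offsets, the filter on dim probe sets, the trended and robust prior, and array weights. Under them, 1062 probe sets (quantile normalization) to 6129 (hybridization controls as zero) were called lower, against 1173 without them. The filter tested 23411 probe sets and the others 45037. With the replicate block, which removes degrees of freedom and for which the numbers show no pairing, Icam1 was at -2.05 with an adjusted p of 0.134, and 0 members were called lower in place of 1. Over all probe sets the replicate block called 0 probe sets. Without any 1 array, 0 members were called lower and 0 higher, and Icam1 ran from -2.30 to -1.72. Of all 45037 probe sets, 76 to 219 were called lower without 1 control array and 262 to 1250 without 1 hypoxia array. With all 8 arrays, 1173 were. The numbers called higher were 384 to 858 and 550 to 1367, against 1643 with all 8 arrays. An offset of 100 called 1 member higher, Tnf, and 3476 of all 45037 probe sets. The count of members above background on all hypoxia arrays was 2 by the array median and 2 by the brightest TrpnX probe set. It was 1 by the 75th percentile, 5 by the 25th and 1 by the brightest bacterial probe set. The count above on no array, 4 by the median, was 1 by the brightest TrpnX probe set, 7 by the 75th percentile, 0 by the 25th and 2 by the brightest bacterial probe set.

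Differences of uncalled members changed sign in places. Centring on the hybridization controls gave -0.34 for Ccl4, -0.37 for Cxcl2 and -0.86 for Il1rn at its _a_at probe set. That Il1rn probe set was at -0.26 after median centring, -0.22 after quantile normalization, and -0.18 with an offset of 16 or of 100. An offset of 100 gave 0.013 for Il10, 0.11 for Ccl3 and -0.16 for the ratio of the Il1rn probe sets, and quantile normalization gave 0.20 for the ratio of Il1b to Il1rn. With 1 array left out, ranges were -1.08 to 0.62 for Il10, -1.09 to 0.83 for Ccl3, -0.13 to 1.36 for Ccl4, -0.29 to 1.50 for Cxcl2, -0.69 to 0.74 for Il1rn at its _a_at probe set and -0.63 to 0.44 at its _at probe set. The ratios ran from -1.02 to 0.65 for Il1b to Il1rn, -0.52 to 1.03 for the Il1rn probe sets, -2.39 to -0.78 for Ptgs2 and -1.90 to 0.70 for Ccl3 to Ccl4. The cause was not tested. Il6, Il10 and both Il1rn probe sets were below the median on all 8 arrays.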
